A study of Mus musculus with 8 samples.

Results

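Interferon-stimulated genes are the genes that a cell switches on after it senses an interferon, and 41 of them, listed by symbol, were followed in the ovaries of juvenile mice. All 41 were found among the 45583 gene symbols of the count table, and 38 carried enough counts to be tested. The mice were 3 weeks old, female and of the C57/Bl6 strain, and each gave 1 RNA-seq library. The 4 WT libraries carry the animal numbers 1118, 1119, 1120 and 1121, and the 4 libraries labelled GOAT KO carry 1139, 1140, 1141 and 1146. The GOAT KO strain is a germline knockout of ghrelin O-acyltransferase, the enzyme that attaches an acyl group to the hormone ghrelin, so no tissue or age is singled out by the deletion. WT mice came from the same heterozygous crosses. No animal received an interferon, a virus or any other treatment, so the values are levels in unchallenged whole ovary.

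Type I interferons act on the receptor IFNAR1/IFNAR2, and type II interferon on IFNGR1/IFNGR2. The receptors start JAK kinases, which phosphorylate STAT proteins. A complex that holds STAT2 and IRF9 binds the interferon-stimulated response element (ISRE), and the type II signal acts through the gamma-activated site (GAS). The induced proteins sense foreign nucleic acid, stop translation, trap virions, present antigen and feed back on the pathway. A low, tonic level of many of these transcripts is known from resting tissue, and resident macrophages are a common site of it.

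In the 4 libraries labelled GOAT KO most of the interferon-stimulated genes stood slightly below the WT level. Of the 38 tested, 35 had a lower mean, with a median log2 fold change of -0.16, beside 50.1% of all 16601 genes tested and a median of -0.0003. The list was chosen with earlier results of these data known, and these shares make no allowance for that. *Samd9l* (sterile alpha motif domain containing 9 like, an antiviral restriction factor), the transcription factors *Irf1* and *Irf9*, the RNA sensor *Oas2*, the ADP-ribosyltransferase *Parp14*, the GTPase *Igtp* and *Ifi44* fell at an unadjusted p under 0.05 by edgeR's quasi-likelihood test, 7 of 38 where 2.13% of all genes were called lower. Of these, *Samd9l* and *Parp14* kept the call without any 1 library, and the other 5 lost it without at least 1. *Mx2*, *Bst2* and *Ifitm3* were the 3 tested genes with a higher mean, and none of them passed. No member passed after Benjamini-Hochberg adjustment over all genes in the edgeR fit of all 8 libraries, and 1 did by DESeq2, which called 0.0459% of all genes.

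The count totals ran from 16147216 to 19481798 per library. The targeted gene, *Mboat4* (which encodes GOAT), went against the labels, with 1, 1, 1 and 3 counts in the WT libraries and 5, 7, 7 and 8 in the libraries labelled GOAT KO, so every direction, those above included, is between libraries as labelled. Whether these few reads lie in the deleted part of the gene was not tested. Ovary markers were present in all libraries, among them the oocyte coat gene *Zp3* (159 to 200.2 CPM, read counts scaled to library size) and the granulosa cell hormone *Amh* (296 to 453 CPM). GOAT KO 1139 held 614 CPM over 6 adipose tissue markers, against 15.1 to 36.3 CPM in the other libraries. In its account of the samples the study set aside 1 library of each group by their position in a scaling plot, without naming them in its text. Results without WT 1120 and GOAT KO 1139, a set of 6 taken from an earlier analysis of these data, are given beside those for all 8.

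The starts of these genes were searched for the letters of the sites through which interferon acts. RefSeq promoter windows (GRCm38.p6, 250 bases before to 50 after the transcription start) were found for 31 of the 41 genes. An ISRE, searched as GAAA, any 2 bases and GAAA on both strands, occurred in 18 of the 31 (58.1%) and in 3.99% of all 27025 genes with a window. A GAS, searched as TTCNNNGAA, a palindrome, occurred in 9 of the 31 (29.0%) and in 9.55% of all. The stretches below run from 150 bases before to 20 after the start, 5′ to 3′ on the strand of the gene, with every match in capitals. They show an element made of overlapping copies (*Isg15*), a pair of separate copies (*Ifit1*), an ISRE and a GAS that overlap (*Bst2*) or lie next to each other (*Igtp*), a GAS alone (*Irf1*) and, for *Samd9l*, neither set of letters. The positions are chr4:156200799-156200968 (minus strand), chr19:34640739-34640908 (plus), chr8:71537453-71537622 (minus), chr11:58199406-58199575 (plus), chr11:53769864-53770033 (plus) and chr6:3399552-3399721 (minus).
Isg15: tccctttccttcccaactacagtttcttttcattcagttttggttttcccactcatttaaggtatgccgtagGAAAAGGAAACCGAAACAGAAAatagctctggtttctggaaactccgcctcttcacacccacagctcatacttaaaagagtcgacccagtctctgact
Ifit1: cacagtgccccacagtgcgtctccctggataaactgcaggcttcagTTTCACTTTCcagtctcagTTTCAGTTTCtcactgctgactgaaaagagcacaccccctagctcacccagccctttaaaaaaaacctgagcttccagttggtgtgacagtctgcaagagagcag
Bst2: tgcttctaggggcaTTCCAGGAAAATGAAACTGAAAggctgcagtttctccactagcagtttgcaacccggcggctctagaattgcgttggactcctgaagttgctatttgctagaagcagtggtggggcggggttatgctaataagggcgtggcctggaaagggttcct
Igtp: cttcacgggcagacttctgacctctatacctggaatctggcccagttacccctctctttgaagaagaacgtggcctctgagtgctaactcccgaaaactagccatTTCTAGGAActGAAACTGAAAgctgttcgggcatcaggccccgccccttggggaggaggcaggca
Irf1: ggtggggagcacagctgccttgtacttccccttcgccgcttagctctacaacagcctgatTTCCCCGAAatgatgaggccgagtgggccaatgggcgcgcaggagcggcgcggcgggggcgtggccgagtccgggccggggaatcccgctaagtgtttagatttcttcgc
Samd9l: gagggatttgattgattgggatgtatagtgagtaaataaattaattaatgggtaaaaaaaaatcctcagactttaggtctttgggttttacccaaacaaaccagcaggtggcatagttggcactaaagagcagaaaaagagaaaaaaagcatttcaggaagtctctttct

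A match describes the letters only. The 3 ISRE matches of *Isg15* start between 78 and 66 bases before the transcription start and share bases with each other. Those of *Ifit1* start 104 and 85 bases before it, and the *Igtp* match 34 bases before it. Among tested members the 16 with an ISRE in the window had a median log2 fold change of -0.14 and the 13 without one a median of -0.17. The windows of *Irf1*, *Irf9*, *Ifi44* and *Samd9l*, members lower in the GOAT KO libraries, held no ISRE match, that of *Igtp*, also lower, held 1, and *Oas2* and *Parp14* had no window.

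How strongly the members were transcribed was compared per length, as CPM per kb of exon. *Bst2* (tetherin, which holds budding virions on the cell surface) led with 131 ± 27.0 in WT and 141 ± 5.07 in GOAT KO (SD, n = 4). *Ifitm3*, a membrane protein that blocks virus entry, followed with 70.8 ± 6.67 and 72.6 ± 1.77. Both stood far above *Irf1* at 14.7 ± 0.81, *Gbp2* at 11.2 ± 2.29 and *Stat2* at 9.62 ± 0.62 in WT. *Irf1*, *Gbp2* and *Stat2* are neighbours in that order, and *Gbp2* lay within its own spread of *Stat2*. *Eif2ak2* (5.93 ± 0.49), *Irf9* (5.91 ± 0.22) and *Gbp3* (5.67 ± 0.87) could not be put in order. At the low end *Oas1a*, *Zbp1*, *Mx1* and *Oas3* lay between 0.28 and 0.048 in WT. *Mx1*, *Oas3* and *Oas1a* stayed under the filter on low counts, with 4 to 13 counts per library for *Mx1*, 1 to 12 for *Oas3* and 7 to 13 for *Oas1a*, and were not tested. The WT and GOAT KO means were 0.44 and 0.56 CPM for *Mx1*, 0.34 and 0.51 for *Oas3*, and 0.54 and 0.50 for *Oas1a*.

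**Figure D1:**
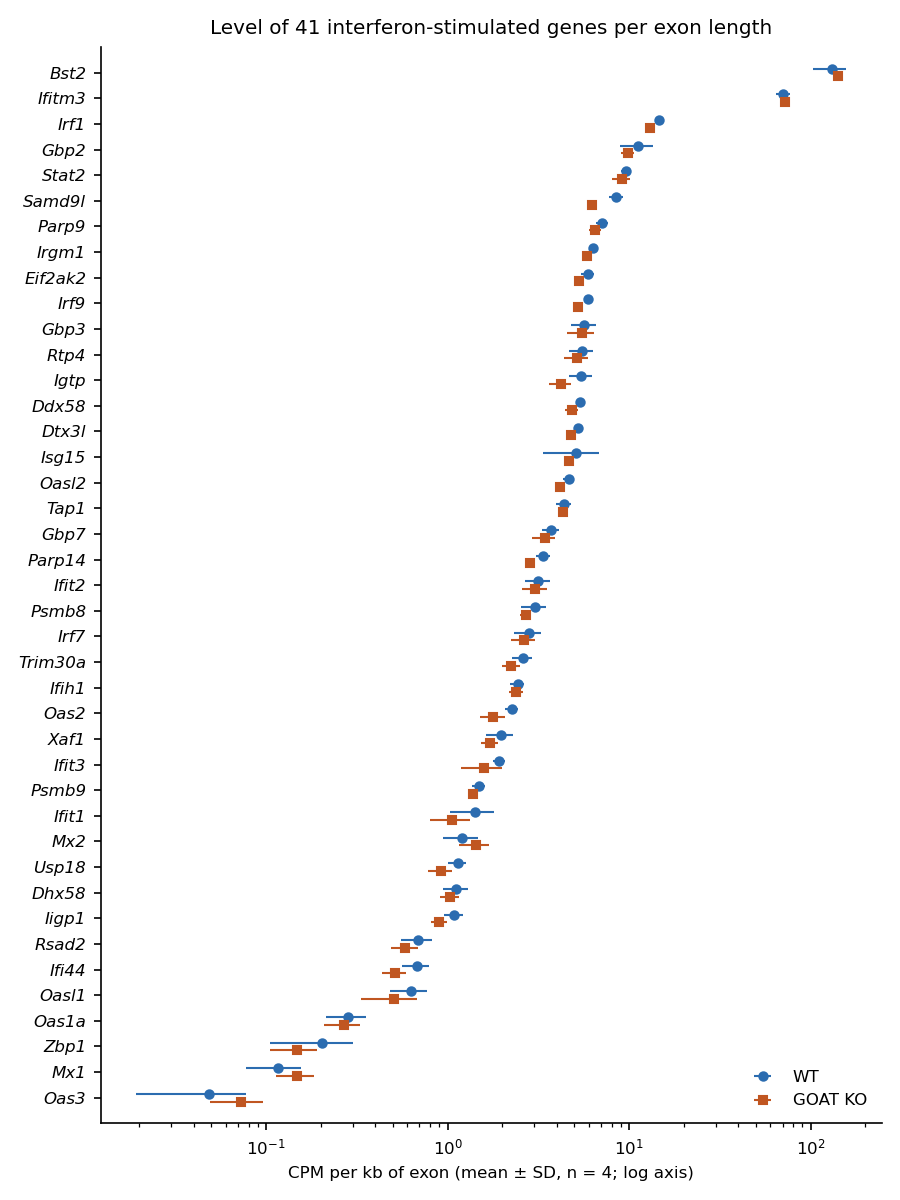
Level of each of the 41 interferon-stimulated genes as CPM per kb of exon (x axis, log scale; mean ± SD, n = 4 libraries) in WT (circles) and GOAT KO (squares). *Bst2* and *Ifitm3* stand apart at 131 and 70.8 in WT, and *Oas3* is lowest at 0.048.

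Counting calls over all genes gives the background for the members. At an unadjusted p under 0.05, 4.62% of the 16601 genes were called in the fit of all 8 libraries, and 2.13% were called lower. Among the members 7 of 38 were called, all lower. With the study's fold limits added, 4 members were called past an absolute log2 fold change of 0.3 (*Samd9l*, *Oas2*, *Igtp* and *Ifi44*; background 2.85%, lower 1.27%) and 0 past 0.5 (background 1.67%). Without WT 1121 the 7 became 3 and the 4 became 1 (background 3.01%), and without GOAT KO 1139 the 4 became 2 (background 3.35%). Without WT 1118 the 7 became 12 (background 1.63% lower), and without WT 1120 they became 11 (5.4% lower). After adjustment edgeR called 0.0241% of all genes and 0 members, and DESeq2 called 0.0459% and 1 member. The GOAT KO values of 6 members lay wholly below their WT values (*Samd9l*, *Irf1*, *Irf9*, *Oas2*, *Parp14* and *Ifi44*), and those of no member wholly above, while 1.27% of all genes were separated that way downwards and 1.64% upwards.

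**Figure D2:**
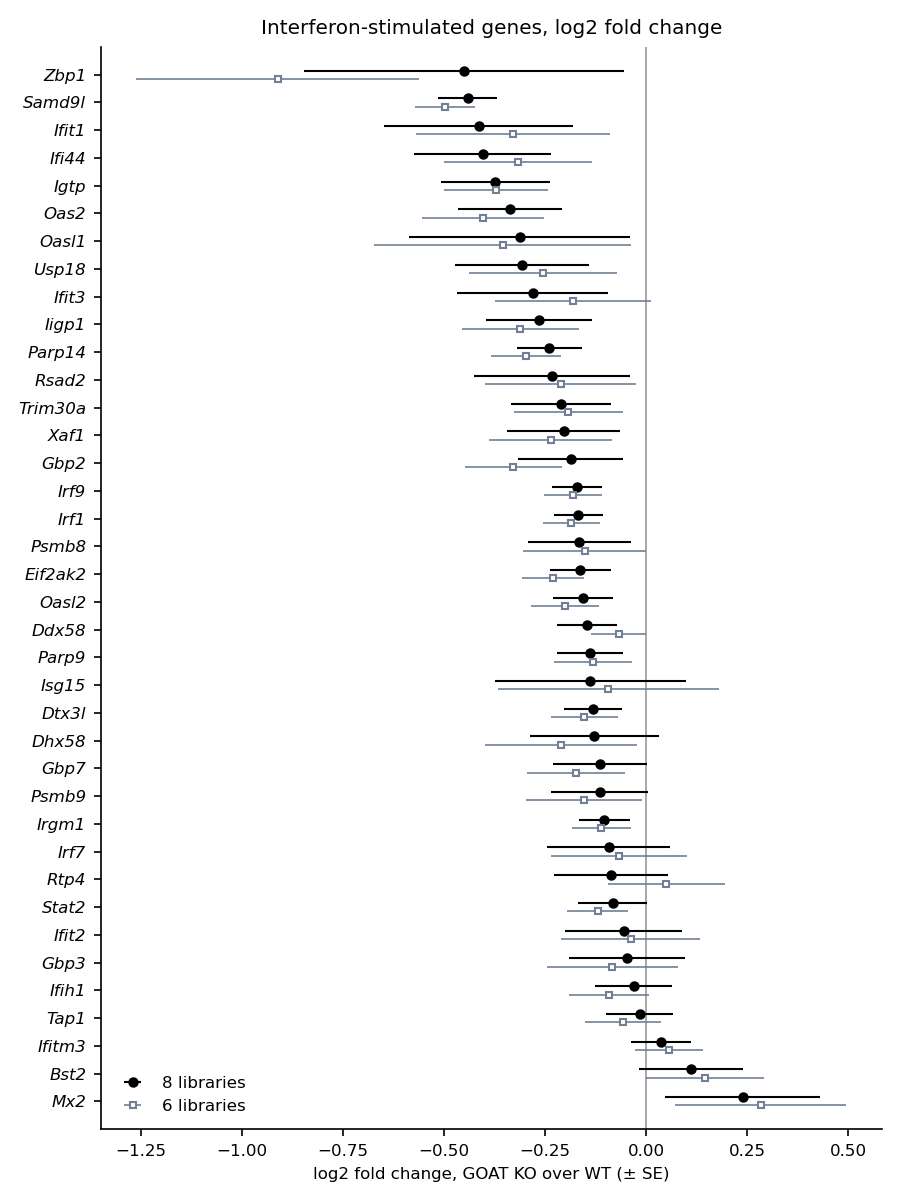
Log2 fold change of the 38 tested members, GOAT KO over WT, with its SE (x axis; 1 row per gene), in the fit of all 8 libraries (filled circles) and of the 6 without WT 1120 and GOAT KO 1139 (open squares). With all 8, 35 points lie left of 0, and *Mx2*, *Bst2* and *Ifitm3* lie right of it.

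Among the effectors of translation and replication, *Samd9l* (chr6:3372257-3399572, minus strand) moved most clearly. It measured 48.4, 44.0, 41.5 and 50.3 CPM in WT 1118, 1119, 1120 and 1121, and 34.5, 34.3, 32.5 and 34.3 CPM in GOAT KO 1139, 1140, 1141 and 1146. The 4 GOAT KO libraries lay close together and all below the lowest WT library. The log2 fold change was -0.44 (SE 0.07, edgeR unadjusted p = 0.0001, adjusted p = 0.27) over 8 libraries and -0.50 (SE 0.08, adjusted p = 0.0384) over 6. *Eif2ak2* encodes PKR, a kinase that stops translation when it binds double-stranded RNA. Its values were 30.4, 33.1, 27.0 and 30.9 CPM in WT and 27.9, 27.7, 26.7 and 26.0 CPM in GOAT KO. The groups overlapped only through WT 1120, and the log2 fold change was -0.16 (SE 0.08, unadjusted p = 0.0536) over 8 libraries and -0.23 (SE 0.08, unadjusted p = 0.0119) over 6. *Rsad2* (viperin, which makes a chain-terminating nucleotide) averaged 2.99 ± 0.58 in WT and 2.54 ± 0.42 CPM in GOAT KO (SD, n = 4), a difference within the spread.

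The transcription factors carry the interferon signal to the genome. All 4 had lower means and 2 passed. *Irf1* (chr11:53770014-53778374, plus strand), which is itself induced through its GAS and activates many of the other members, measured 63.0, 57.1, 57.4 and 55.7 CPM in WT. In GOAT KO it measured 52.8, 52.4, 49.8 and 52.4 CPM, so the groups did not overlap, and the log2 fold change was -0.17 (SE 0.06, unadjusted p = 0.0187, adjusted p = 0.98 by edgeR), and without GOAT KO 1141 it was -0.15 (unadjusted p = 0.0505). *Irf9* (chr14:55603571-55610030, plus strand), the DNA-binding partner of STAT2, stood at 31.5, 31.9, 30.5 and 33.4 CPM in WT and at 27.6, 28.8, 28.7 and 28.0 CPM in GOAT KO. It too separated the groups, at -0.17 (SE 0.06, unadjusted p = 0.0180), and lost the call without WT 1121 (-0.15, unadjusted p = 0.0532). Exons of *Irf9* share positions with the gene *Rnf31* on the same strand and those of *Irf1* with *Gm17334* on the opposite strand. *Stat2* (57.0 ± 3.66 against 53.9 ± 5.91 CPM, n = 4) and *Irf7*, the factor that amplifies type I interferon (10.6 ± 1.79 against 9.91 ± 1.51 CPM), overlapped.

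The OAS family makes or resembles the synthetases that activate RNase L on double-stranded RNA. All 3 tested members had lower means. *Oas2* (chr5:120730333-120749853, minus strand) read 9.29, 11.0, 9.44 and 10.4 CPM in WT against 8.56, 9.04, 7.99 and 6.22 CPM in GOAT KO. Lowest was GOAT KO 1146, and no GOAT KO library reached the lowest WT one. The log2 fold change was -0.34 (SE 0.13, unadjusted p = 0.0245). The call was lost without GOAT KO 1146 (-0.24, unadjusted p = 0.0674), WT 1119 (-0.29, unadjusted p = 0.0682) or WT 1121 (-0.32, unadjusted p = 0.0545). *Oasl2* was present at 27.5, 31.1, 28.4 and 31.6 CPM in WT and 27.9, 27.4, 26.5 and 24.6 CPM in GOAT KO, with GOAT KO 1139 above WT 1118 in otherwise ordered groups. Its log2 fold change was -0.16 (SE 0.07, unadjusted p = 0.0591) over 8 libraries and -0.20 (SE 0.09, unadjusted p = 0.0383) over 6. *Oasl1* varied by up to 2.13 times within the GOAT KO libraries at 1.32 ± 0.44 CPM and was not separable from WT at 1.64 ± 0.38 CPM.

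PARP9, PARP14 and DTX3L modify proteins by ADP-ribosylation and ubiquitination. *Parp14* (chr16:35832874-35871544, minus strand) gave 30.4, 31.4, 28.6 and 34.8 CPM in WT and 27.4, 27.7, 24.1 and 27.0 CPM in GOAT KO. The groups were separate, with WT 1120 closest to the GOAT KO libraries, and the log2 fold change was -0.24 (SE 0.08, unadjusted p = 0.0131). Exons of *Parp14* overlap those of *Gm49730* on the same strand. *Parp9*, the most abundant of the group per kb, gave 30.7, 36.8, 35.1 and 36.3 CPM in WT and 31.4, 34.7, 31.4 and 28.8 CPM in GOAT KO. Here WT 1118 lay among the GOAT KO libraries, and -0.14 (SE 0.08, unadjusted p = 0.117) did not pass. *Dtx3l* stood at 30.1 ± 1.75 in WT and 27.5 ± 1.56 CPM in GOAT KO (SD, n = 4), at -0.13 (SE 0.07, unadjusted p = 0.0981). *Parp9* and *Dtx3l* have exons that overlap on opposite strands, and the use of strand in counting is not given in the sources used here, so their values may share reads. Among the 41 members 17 have exons that overlap another annotated gene.

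Guanylate-binding proteins (GBP) and immunity-related GTPases (IRG) attack vacuoles of intracellular pathogens. All 6 had lower means. *Igtp* (chr11:58199556-58207591, plus strand, an IRG also called IRGM3) read 11.2, 10.6, 9.33 and 13.1 CPM in WT and 7.12, 9.96, 8.50 and 8.48 CPM in GOAT KO. WT 1120 lay below GOAT KO 1140, the single overlap, and the log2 fold change was -0.37 (SE 0.13, unadjusted p = 0.0186). The call was lost without WT 1121 (-0.28, unadjusted p = 0.0667) or GOAT KO 1139 (-0.30, unadjusted p = 0.0528). Exons of *Igtp* overlap those of *Irgm2* on the same strand. *Gbp2* spread widely in WT, at 36.1, 26.4, 22.4 and 27.4 CPM, against 27.1, 25.6, 23.3 and 22.7 CPM in GOAT KO. WT 1118 was highest and WT 1120 lowest of all 8, so the result moved with the libraries kept: -0.19 (SE 0.13, unadjusted p = 0.181) over 8 and -0.33 (SE 0.12, unadjusted p = 0.0201) over 6. Without WT 1118 alone *Gbp2* differed by -0.04 (edgeR unadjusted p = 0.650). *Iigp1* measured 6.13, 6.50, 5.38 and 7.20 CPM in WT and 4.97, 5.93, 5.32 and 4.77 CPM in GOAT KO, with WT 1120 among the GOAT KO values, at -0.27 (SE 0.13, unadjusted p = 0.0693). *Irgm1* (36.7 ± 1.63 against 34.2 ± 1.14 CPM), *Gbp3* (18.5 ± 2.86 against 17.9 ± 3.11 CPM) and *Gbp7* (20.8 ± 2.26 against 19.2 ± 2.83 CPM) did not pass.

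Sensors of viral nucleic acid had lower means in all 4 cases, and none passed over 8 libraries. *Ddx58* encodes RIG-I and was the most abundant of them per kb. Its values were 37.4, 36.2, 39.4 and 38.2 CPM in WT and 29.9, 36.3, 35.1 and 35.3 CPM in GOAT KO. GOAT KO 1139 was lowest, and the log2 fold change of -0.15 (SE 0.07, unadjusted p = 0.0765) became -0.07 (SE 0.07, unadjusted p = 0.343) over 6 libraries. *Zbp1*, a sensor of Z-form nucleic acid, lay near the filter at 0.99, 0.61, 0.27 and 0.98 CPM in WT and 0.72, 0.55, 0.36 and 0.46 CPM in GOAT KO. WT 1120 was the lowest of all, and the log2 fold change went from -0.45 (SE 0.40, unadjusted p = 0.281) over 8 to -0.91 (SE 0.35, unadjusted p = 0.0249) over 6. It rested on 86 counts in all. *Ifih1* (MDA5) differed by -0.03 (SE 0.10) and *Dhx58* (LGP2) by -0.13 (SE 0.16).

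Proteins of the IFIT family bind foreign RNA ends. *Ifit2* was the most abundant per kb, at 14, 9.72, 12.5 and 13.5 CPM in WT and 11.6, 9.41, 13.4 and 13.3 CPM in GOAT KO, with overlapping groups. *Ifit1* averaged 3.74 ± 1.01 in WT and 2.82 ± 0.69 CPM in GOAT KO (SD, n = 4), at -0.41 (SE 0.23, unadjusted p = 0.104). *Ifit3* averaged 3.37 ± 0.26 and 2.77 ± 0.70 CPM, at -0.28 (SE 0.19, unadjusted p = 0.162). Neither passed over all 8 libraries. *Ifit1* was -0.55 without WT 1118 (edgeR unadjusted p = 0.0342) and -0.24 without WT 1121. *Ifit3* was -0.45 without GOAT KO 1140 (edgeR unadjusted p = 0.0273) and -0.16 without GOAT KO 1139.

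The ubiquitin-like modifier *Isg15* measured 1.98, 3.95, 4.39 and 5.07 CPM in WT and 3.65, 3.61, 3.43 and 3.37 CPM in GOAT KO. The WT libraries spanned the whole GOAT KO range, at -0.14 (SE 0.24, unadjusted p = 0.571). *Usp18*, the protease that removes ISG15 and damps the type I receptor, averaged 3.17 ± 0.36 and 2.56 ± 0.39 CPM, at -0.31 (SE 0.16, unadjusted p = 0.0900). Neither passed.

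Membrane and Mx proteins were the role group with no lower mean among its tested members. *Bst2* read 82.3, 134, 121 and 134 CPM in WT and 122, 126, 133 and 129 CPM in GOAT KO, so WT 1118 alone stood low. The log2 fold change was 0.11 (SE 0.13, unadjusted p = 0.405), and without WT 1118 it was -0.03. *Ifitm3* (48.0 ± 4.52 against 49.2 ± 1.20 CPM, n = 4) and *Mx2* (4.35 ± 0.95 against 5.16 ± 0.96 CPM, at 0.24, SE 0.19, unadjusted p = 0.237) overlapped as well.

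Antigen processing genes serve peptide loading of MHC class I. *Tap1*, the peptide transporter, gave 21.9, 24.4, 22.3 and 26.9 CPM in WT and 24.1, 23.4, 24.5 and 22.4 CPM in GOAT KO, with a log2 fold change of -0.02 (SE 0.08). The immunoproteasome subunits *Psmb8* (-0.17, SE 0.13) and *Psmb9* (-0.11, SE 0.12) did not pass. *Psmb8* was -0.25 without WT 1118 (edgeR unadjusted p = 0.0466) and -0.08 without WT 1121. *Psmb9* and *Tap1* overlap on opposite strands.

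Of the other induced genes *Ifi44* (chr3:151730922-151749960, minus strand) passed. It read 3.78, 3.61, 4.06 and 5.18 CPM in WT and 2.45, 3.30, 3.43 and 3.37 CPM in GOAT KO, with a narrow gap between WT 1119 and GOAT KO 1141. It differed by -0.40 (SE 0.17, unadjusted p = 0.0369) over 8 libraries and -0.32 (SE 0.18, unadjusted p = 0.111) over 6, where the call was lost. It was also lost without WT 1120, WT 1121, GOAT KO 1139 or GOAT KO 1140 (-0.43 to -0.28, unadjusted p = 0.0507 to 0.127). *Rtp4*, a chaperone of membrane receptors, gave 9.17, 11.8, 13.3 and 12.3 CPM in WT and 9.39, 12.8, 11.9 and 9.82 CPM in GOAT KO. It changed sign with the libraries kept, from -0.09 (SE 0.14) to 0.05 (SE 0.15). *Xaf1* (-0.20, SE 0.14) and *Trim30a* (-0.21, SE 0.12) did not pass.

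**Figure D3:**
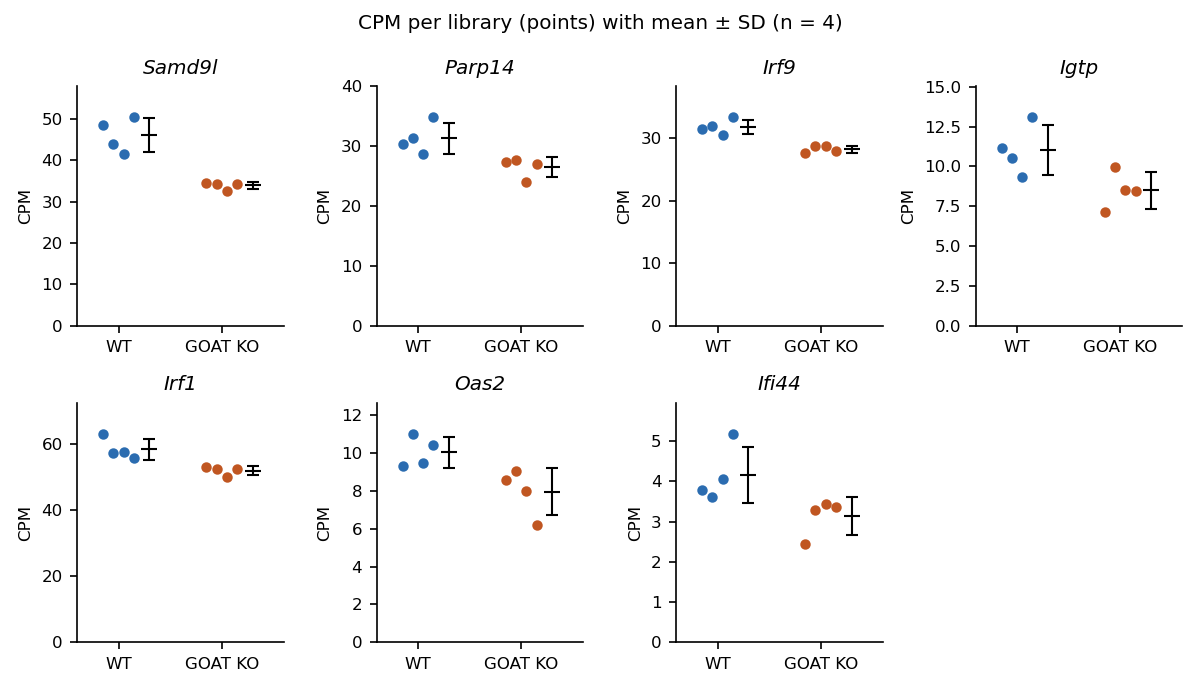
CPM of the 7 members with an unadjusted p under 0.05 in each library (points, in the order of the animal numbers) with the mean ± SD of each group (n = 4) and an axis from 0. The groups are separate for 6 of them, and for *Igtp* GOAT KO 1140 at 9.96 CPM lies above WT 1120 at 9.33 CPM.

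Members did not move evenly across the libraries. Taken as log2 CPM minus the mean of the gene over all 8 libraries, the median over the 38 tested members was 0.03, 0.11, 0.03 and 0.18 in WT 1118, 1119, 1120 and 1121. In GOAT KO 1139, 1140, 1141 and 1146 it was -0.06, -0.006, -0.08 and -0.12. WT 1121 held the highest value of 17 members and lay above the gene mean for all 38, whereas WT 1118 was highest for 4 and lowest for 7. GOAT KO 1139 and 1146 were each lowest for 10. Summed over all members the level ran from 781 to 890 CPM in WT and from 757 to 791 CPM in GOAT KO. Within a group the median coefficient of variation was 11.6% in WT and 10.05% in GOAT KO.

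**Figure D4:**
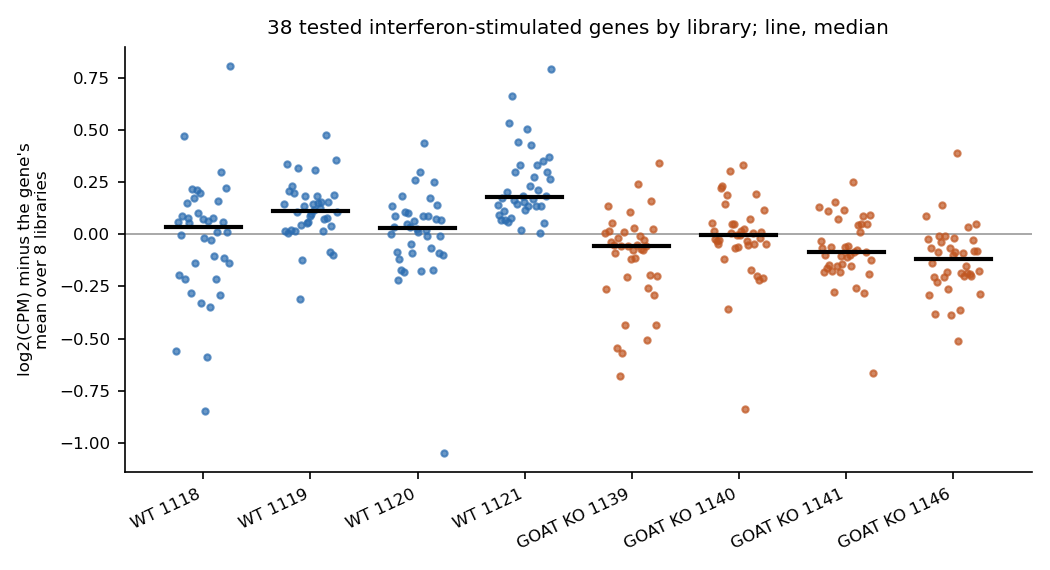
Deviation of each of the 38 tested members in each library, as log2 CPM minus the mean of the gene over the 8 libraries (points), with the median of each library (line). The WT medians run from 0.03 to 0.18 and the GOAT KO medians from -0.12 to -0.006.

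With the 6 libraries, 10 of the 38 members fell at an unadjusted p under 0.05 and none rose, where 4.65% of all 16641 genes were called lower and 4.81% higher. These were *Samd9l*, *Irf1*, *Irf9*, *Oas2*, *Parp14* and *Igtp* together with *Oasl2*, *Eif2ak2*, *Gbp2* and *Zbp1*. Past 0.3 on the log2 scale 5 members were called (background 4.77%), and past 0.5 1 was, *Zbp1* (background 2.39%). After adjustment 1 was called, *Samd9l* (background 0.12%). The values of 14 members were then wholly lower in GOAT KO, beside 7.55% of all genes. The background shares of separated genes differ between the sets of libraries, so these counts are not comparable between them.

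Reads across splice junctions gave a second count of the same RNA. They come from the same libraries and are no independent sample. Of the 37 tested members with at least 1 junction read at an annotated intron, 28 had the same direction as in the gene counts, and of the 31 with at least 20 reads 25 did. *Irf1* held 246, 281, 245 and 266 junction reads in WT and 193, 191, 211 and 226 in GOAT KO. Scaled to all junction reads of a library as CPM, that was 91.3 ± 4.39 for WT and 72.1 ± 6.20 for GOAT KO (SD, n = 4), and the groups did not overlap. *Oas2* held 15, 26, 21 and 30 reads in WT and 15, 13, 15 and 1 in GOAT KO, also separate as junction CPM (7.99 ± 1.74 against 3.86 ± 2.37). *Zbp1* was the one member separate upwards, on 0 reads in every WT library and 1, 3, 1 and 1 in GOAT KO, against a lower mean by gene counts. Of all 13295 tested genes with a junction read, 1.3% were separate downwards and 1.5% upwards. *Irf9* (44.3 ± 0.81 against 37.4 ± 5.20 junction CPM) and *Parp14* (15.9 ± 2.80 against 10.9 ± 3.68) were lower in the mean and overlapped. *Samd9l* had 8 junction reads among 5615 counts, and *Isg15* had 0 among 521, so neither could be compared this way. *Bst2* had 7165 among 17318. *Trim30a*, with 40 reads, was higher in the mean by junction reads and lower by gene counts.

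**Figure D5:**
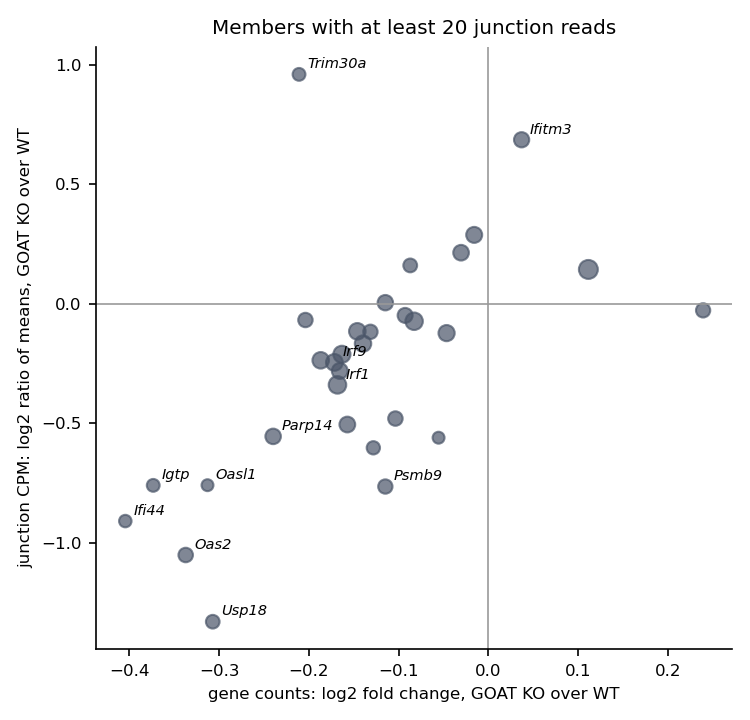
Log2 ratio of mean junction CPM (y axis) against the log2 fold change of the gene counts (x axis), GOAT KO over WT, for the 31 tested members with at least 20 junction reads (larger points hold more reads). Points in the lower left and upper right quadrants, 25 of the 31, have the same direction in both counts.

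Upstream of the members, the pathway was read from lists of other genes. The 21 interferon genes listed, which include the beta, alpha, gamma and lambda ligands, held 0 to 3 counts per library in all, with 2, 0, 1 and 3 in WT and 2, 2, 0 and 3 in GOAT KO, so that no difference between the groups was detectable at this depth. Their receptors were present without a called difference. *Ifnar1* averaged 121 ± 3.93 in WT and 122 ± 3.62 CPM in GOAT KO, and *Ifngr1* 51.3 ± 3.37 and 51.3 ± 2.81 CPM (SD, n = 4). The kinase *Jak1* reached 1033 ± 86.2 and 1116 ± 40.8 CPM. None of the 6 receptor genes and 8 negative regulators passed, and *Jak1*, *Jak2*, *Tyk2* and *Stat3* did not pass either, at an unadjusted p under 0.05.

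Of the 14 genes that lead to interferon production 1 passed, *Tlr7*, an endosomal sensor of single-stranded RNA. It measured 2.23, 2.06, 1.65 and 2.07 CPM in WT and 1.62, 1.47, 1.69 and 1.10 CPM in GOAT KO, at -0.44 (SE 0.19, unadjusted p = 0.0443). Among 55 tested genes of a list of further induced genes 36 had a lower mean and 3 passed (5.45%), all lower. These were *Ifi203* (-0.37, SE 0.16) and the near-identical copies *Tgtp1* (-0.78, SE 0.35) and *Tgtp2* (-0.94, SE 0.31), whose reads may be split between them. Over all 88 tested genes of these lists 56 had a lower mean, with a median log2 fold change of -0.04, and 4 passed, all lower (4.55%, where 2.13% of all genes were called lower), beside 35 of 38, -0.16 and 18.4% for the members. With the 6 libraries, where 4.65% of all genes were called lower, 12 of 55 further induced genes (21.8%) passed, all lower. Of the members 10 of 38 (26.3%) did, also all lower. The difference between the lists was not tested, and the shares are not comparable between the 2 sets of libraries.

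Markers of leukocytes were read from a list of 24, of which 14 were tested. Of these 11 had a lower mean (50.1% of all genes did) and 4 passed, all lower (2.13% of all genes): the macrophage genes *Adgre1* (-0.36, SE 0.11), *Fcgr1* (-0.53, SE 0.20), *C1qb* (-0.30, SE 0.14) and *C1qc* (-0.32, SE 0.13). Their summed level ran from 83.0 to 108 CPM in WT and from 75.1 to 90.8 CPM in GOAT KO (exact permutation test, two-sided, p = 0.143, where 0.0286 is the smallest that 4 against 4 allows). *Siglech*, which marks plasmacytoid dendritic cells, and *Cd3e*, which marks T cells, held 0 to 3 counts per library. The part of leukocytes in the values of the members was not tested. In whole tissue, fewer cells of a type and less RNA per cell cannot be told apart.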

How the data were processed

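Ovary RNA from 4 WT and 4 GOAT KO mice, 1 library per mouse, was sequenced by the authors as single reads, aligned to mm10 (GRCm38) with TopHat 2.0.14 and counted per known gene. The deposited gene counts and junction read counts are whole numbers without normalization. TopHat2 2.0.14 and StringTie 1.0.4 are named in the submitters' processing notes. The counting tool and its use of strand are not given in the sources used here.

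The members and lists were chosen with earlier results of these data known, as was the 6-library set. Counts were fitted in edgeR 4.0.16 (R 4.3.3) over all genes that passed filterByExpr (at least 0.566 CPM in 4 libraries and 15 counts in all), with TMM scaling, the quasi-likelihood test and Benjamini-Hochberg adjustment. The fold limits of 0.5 and 0.3 are those of the study. The SE is the log2 fold change over the square root of F. CPM are TMM-scaled. Exon lengths, positions and introns come from GENCODE M21 (GRCm38). Junction reads at annotated introns were divided by all junction reads of the library. The fitting was tested on simulated data.

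Values in every library are given for members with an unadjusted p under 0.05 in either fit, for members with separate groups and for the most abundant per kb in each role group. *Iigp1* was named beside them after its values were seen. No 2 libraries of a group agreed within sampling noise (chi-square per gene 3.96 to 24.97). Alternatives were RLE size factors, no filter on low counts, DESeq2 1.42.0, limma-voom 3.58.1, the 6 libraries and leaving out each library. Depth was 16147216 to 19481798 counts per library.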

Additional observations from a re-analysis of the deposited data

Results flagged for a closer look

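In 3 of 76 groups of 4 libraries, each 1 member in 1 genotype, the highest or lowest library lay farther from its neighbour than Dixon's test allows at the 95% level, and chance gives about 1 in 20. *Irf1* in GOAT KO 1141 measured 49.8 CPM against 52.4 to 52.8 in the other GOAT KO libraries. *Samd9l* in GOAT KO 1141 measured 32.5 CPM against 34.3 to 34.5. *Ifi44* in GOAT KO 1139, the library with 614 CPM of adipose tissue markers, measured 2.45 CPM against 3.30 to 3.43. In each case the other 3 libraries lay close together, and the low library is on the side away from WT.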

How the results depend on the processing

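No paired analysis was possible because the labels give no litter or other pairing of the animals. The animal numbers of the 2 groups run in separate ranges. *Samd9l* stayed lower and passed at an unadjusted p under 0.05 without any 1 library (-0.49 to -0.40, largest p 0.000578), as did *Parp14* (-0.29 to -0.19, largest p 0.0449). *Irf1*, *Irf9*, *Oas2*, *Igtp* and *Ifi44* each lost the call without at least 1 library. Another 11 members gained a call, all lower, in at least 1 fit with 1 library left out. These were *Eif2ak2*, *Gbp2*, *Ifit1*, *Ifit3*, *Iigp1*, *Isg15*, *Oasl2*, *Parp9*, *Psmb8*, *Usp18* and *Zbp1*. The count of members lower at an unadjusted p under 0.05, 7 with all libraries, ran from 3 without WT 1121 (2.15% of all genes called lower) to 12 without WT 1118 (1.63%), and was 11 without WT 1120 (5.4%). The count past 0.3, 4 with all, ran from 1 without WT 1121 (3.01% of all genes) to 6 without WT 1118 (2.27%), and was 2 without GOAT KO 1139 (3.35%). The count past 0.5 was 0 to 1, reaching 1 without WT 1118 (1.37% of all genes), without WT 1120 (2.61%) and with 6 libraries (2.39%). The adjusted count, 0 with all 8 and with any 1 left out, was 1 by DESeq2 (0.0459% of all genes) and 1 with 6 libraries (0.12%). Members with separate groups, 6 with all, numbered 6 to 11 with 1 library left out (10 without WT 1118, 11 without GOAT KO 1140) and 14 with 6 libraries, all lower, while the share of all genes separated downwards rose from 1.27% to between 1.96% and 5.14% (2.2% and 2.33% in those named) and to 7.55%. Values that changed sign with 1 library left out were those of *Isg15* (-0.35 to 0.021), *Irf7* (-0.20 to 0.0092), *Ifih1* (-0.096 to 0.018), *Ifit2* (-0.16 to 0.042), *Bst2* (-0.026 to 0.18), *Ifitm3* (-0.0011 to 0.092), *Gbp3* (-0.13 to 0.059) and *Tap1* (-0.055 to 0.045), and *Rtp4* was 0.050 with 6 libraries. None of these was called with all 8, and *Isg15* was called without WT 1118 (unadjusted p = 0.0341 by edgeR). The median log2 fold change of the members stayed between -0.19 and -0.14 with 1 library left out. RLE size factors, no filter and limma-voom changed none of these counts by over 1.5 times. The cause of these changes was not tested. Depth limits *Oas1a*, *Oas3*, *Mx1* and *Zbp1*, and the interferon genes themselves.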

Other observations

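*Herc6*, a ubiquitin ligase for ISG15 in the mouse and 1 of the further induced genes, was the one of 88 tested genes of the pathway lists whose GOAT KO values lay wholly above WT over 8 libraries, and *Tgtp2*, an IRG, the one wholly below, shares near the 1.64% and 1.27% of all genes. *Herc6* measured 17.5, 17.7, 17.6 and 16.8 CPM in WT and 19.4, 18.3, 18.0 and 17.9 CPM in GOAT KO, with a log2 fold change of 0.08 (SE 0.07) that did not pass (edgeR unadjusted p = 0.284). *Tgtp2* measured 1.92, 0.94, 0.88 and 1.58 CPM in WT and 0.84, 0.73, 0.67 and 0.52 CPM in GOAT KO. The further induced genes that fell at an unadjusted p under 0.05 with 6 libraries included *Gbp4*, *Gbp5*, *Slfn5*, *Slfn8*, *B2m* and *H2-K1*, and none of the list rose. With that set 4.65% of all genes were called lower and 4.81% higher, and the count for the list is given above.

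The tested members whose level by junction reads ran opposite to that by gene counts were *Ifih1*, *Zbp1*, *Ifit3*, *Mx2*, *Gbp7*, *Iigp1*, *Tap1*, *Rtp4* and *Trim30a*. Junction reads per 100 gene counts ran from 0 for *Isg15* and 0.14 for *Samd9l* to 41.4 for *Bst2*, with 24.1 for *Irf1*. In *Usp18* they gave 14, 10, 5 and 23 reads in WT and 3, 4, 8 and 6 in GOAT KO.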
